A study of Mus musculus with 11 samples.

Results

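Heat shock and integrated stress response genes were measured by RNA sequencing in hematopoietic stem cells (HSC) of mice that carried an active NrasG12D allele or a NUP98-HOXA10HD transgene. The set held 10 genes, chosen by name from the 37991 gene identifiers counted: Hspa1a, Hspa1b, Hspa8, Hsph1 and Dnajb1 of the cytosolic heat shock response, Hspa5 of the endoplasmic reticulum (ER), and Atf4, Ddit3, Trib3 and Ppp1r15a of the integrated stress response. All 10 were present among the identifiers. The 11 libraries came from 8-week-old C57BL/6 mice, 1000 sorted bone marrow HSC for each library. Control HSC (n = 4) are labelled wild type and, by the study's account, were taken from littermates in which neither was expressed. NA10hd HSC (n = 4) expressed NUP98-HOXA10HD, a fusion of the nucleoporin NUP98 with the homeodomain of HOXA10, from the ROSA26 locus. NV HSC (n = 3) carried NrasG12D, a constitutively active form of the GTPase Nras, at the gene's own locus on a single allele. In both models a loxP-flanked stop cassette was removed by Vav-Cre, which is active throughout the blood system, so that expression was not limited to HSC.

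Cytosolic chaperones of the Hsp70 and Hsp110 families and their Hsp40 partners fold nascent proteins and refold damaged ones. The constitutive forms are always present, while the inducible forms are made under the transcription factor Hsf1 when unfolded protein accumulates. The integrated stress response starts with kinases that phosphorylate the translation factor eIF2 alpha, which slows protein synthesis but favours translation of Atf4. Atf4 then drives genes for amino acid supply together with Ddit3 (also called Chop), Trib3 and Ppp1r15a (also called Gadd34), and Ppp1r15a brings a phosphatase to eIF2 alpha and so ends the response. HSC are known for a low rate of protein synthesis and for sensitivity to misfolded protein.

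The sequence before the transcription start is shown for the members on which the results turn, because Ppp1r15a, Trib3 and Atf4 were lowest in the same libraries and because Hspa1a and Hspa1b are near copies. Each line holds the 250 bases before the start as listed by RefSeq for GRCm38.p6, a later build than the NCBIM37 build to which the reads had been aligned, written 5′ to 3′ on the gene's own strand. In the first group the capitals mark TGACG or its reverse complement CGTCA, a half-site of the cyclic AMP response element, and in Ppp1r15a the whole element TGACGTCA, which contains it. The windows are chr7:45526269-45526518 on the minus strand for Ppp1r15a, chr2:152344061-152344310 on the minus strand for Trib3 and chr15:80254934-80255183 on the plus strand for Atf4.

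Ppp1r15a: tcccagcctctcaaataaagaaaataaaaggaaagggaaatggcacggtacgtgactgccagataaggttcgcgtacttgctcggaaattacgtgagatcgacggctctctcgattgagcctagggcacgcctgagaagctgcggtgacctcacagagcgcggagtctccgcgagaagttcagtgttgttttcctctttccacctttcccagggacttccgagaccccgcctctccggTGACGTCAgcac

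Trib3: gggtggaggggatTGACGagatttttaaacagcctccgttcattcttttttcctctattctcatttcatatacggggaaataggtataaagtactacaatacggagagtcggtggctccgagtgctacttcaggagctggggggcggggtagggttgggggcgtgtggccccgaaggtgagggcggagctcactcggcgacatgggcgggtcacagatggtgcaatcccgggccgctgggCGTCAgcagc

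Atf4: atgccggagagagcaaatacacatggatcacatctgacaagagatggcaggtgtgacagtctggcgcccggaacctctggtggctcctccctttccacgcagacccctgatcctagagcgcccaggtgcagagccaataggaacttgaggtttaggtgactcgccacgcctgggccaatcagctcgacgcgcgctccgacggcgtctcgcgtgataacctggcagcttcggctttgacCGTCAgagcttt

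TGACG was present in 17.8% of 32851 mouse promoter windows of this length, on either strand, and in the windows of 5 members, Atf4, Dnajb1, Hspa5, Ppp1r15a and Trib3. In Atf4, Dnajb1, Ppp1r15a and Trib3 it lay within the last 20 bases before the start, which held it in 2.16% of all windows, a stretch chosen after the sequences had been seen. The whole TGACGTCA was found in 1.55% of windows and, among the members, in Ppp1r15a. The letters TGATGNAA, through which Atf4 and C/EBP factors are known to act, were in 3.45% of windows and in those of 0 members, which says only that these letters do not lie within these 250 bases.

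In the chaperone genes the capitals mark GAANNTTC, a pair of the units that Hsf1 binds, or in Hspa5 the ER stress response element, which joins a CCAAT box to CCACG. The windows are chr17:34972157-34972406 for Hspa1a and chr17:34959239-34959488 for Hspa1b, both on the minus strand, and chr2:34771840-34772089 on the plus strand for Hspa5.

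Hspa1a: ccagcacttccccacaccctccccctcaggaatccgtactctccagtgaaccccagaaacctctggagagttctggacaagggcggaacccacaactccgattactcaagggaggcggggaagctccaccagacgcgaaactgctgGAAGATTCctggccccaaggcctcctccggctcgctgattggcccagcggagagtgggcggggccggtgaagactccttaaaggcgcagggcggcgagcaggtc

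Hspa1b: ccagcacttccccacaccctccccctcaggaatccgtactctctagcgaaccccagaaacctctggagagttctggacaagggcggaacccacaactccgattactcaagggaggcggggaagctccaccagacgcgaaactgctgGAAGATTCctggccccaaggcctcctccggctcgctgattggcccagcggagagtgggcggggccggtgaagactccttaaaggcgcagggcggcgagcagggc

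Hspa5: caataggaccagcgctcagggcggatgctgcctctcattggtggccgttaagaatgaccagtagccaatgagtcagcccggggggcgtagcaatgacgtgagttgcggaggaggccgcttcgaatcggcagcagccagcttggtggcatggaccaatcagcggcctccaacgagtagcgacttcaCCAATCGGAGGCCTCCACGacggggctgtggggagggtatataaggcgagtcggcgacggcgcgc

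The Hspa1a and Hspa1b windows differed at 3 of 250 bases. GAANNTTC or its shifted form TTCNNGAA was in 12.8% of all windows and in those of Hspa1a, Hspa1b and Hsph1, and the heat shock element with a further unit, present in 0.466% of windows, was in 0 members. The ER stress response element was in 0.113% of windows and, among the members, in Hspa5. Windows were listed for 9 of the 10 members, with Hspa8 the exception. For each gene, the annotated NCBIM37 transcript with the longest leader, the mRNA before the coding sequence, was read. The leader of Ppp1r15a held 7 ATG triplets, that of Atf4 held 3, those of Ddit3, Hspa8 and Dnajb1 held 2 each and that of Hsph1 held 1, as compared with at least 2 in 41.7% of 18665 genes. A longer leader has more room for ATG, and those of Ppp1r15a and Atf4 were 764 and 594 bases long, beside a median of 208 over all genes. The leaders of Trib3, Hspa5, Hspa1a and Hspa1b held 0.

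Libraries held 5464815 to 14283008 counts in genes, and a member's level is given as CPM (counts scaled to a common library total), adjusted between libraries by the trimmed mean of M values (TMM). All 10 HSC marker genes examined were detected in each group, with a summed level of 2580 to 3230 CPM in control, 2980 to 3650 CPM in NA10hd and 2190 to 2670 CPM in NV HSC. Summed megakaryocyte markers were at 461 to 542 CPM in control, 362 to 445 CPM in NA10hd and 534 to 776 CPM in NV HSC, with Gp6 at 0 counts everywhere. Summed erythroid markers were at 28.6 to 36.1, 19.7 to 34.8 and 54.3 to 85.1 CPM, myeloid markers at 745 to 946, 827 to 1070 and 747 to 801 CPM, lymphoid markers at 45.7 to 70.7, 44.7 to 104 and 39.6 to 51.8 CPM, and endothelial markers at 447 to 506, 561 to 633 and 425 to 489 CPM. Mitochondrial transcripts made up 2.56 to 3.16% of counts in NV libraries, 3.65 to 4.59% in control and 3.42 to 5.28% in NA10hd libraries. Nras mRNA of the targeted locus differed by 0.41 on the log2 scale between NV and control HSC (standard error (SE) 0.14, adjusted p 0.124 by the quasi-likelihood test of edgeR), and these counts cannot separate the mutant from the normal allele or the fusion from its parts. Xist and Y-linked transcripts showed that libraries differed in the sex of their donors: control libraries 2 and 3 and all 3 NV libraries held both, control 1 and 4 and NA10hd 1 to 3 held Y-linked counts without Xist, and NA10hd 4 held Xist alone. Libraries with both must come from more than 1 mouse, and although the study calls its libraries biological replicates, how they relate to animals is not given, so that p-values measure the spread between these libraries. In such bulk libraries, fewer cells of a type and less RNA per cell cannot be told apart.

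Hspa8, the constitutive Hsp70, had the highest mean CPM of the members in each group, not adjusted for length, and ranked 35 of 18087 detected genes by mean CPM in control HSC. Per kilobase of exon, the control means ran from Hspa8 at 540 CPM per kb and Atf4 at 356 through Hspa5 at 163, Ppp1r15a at 135, Dnajb1 at 104, Ddit3 at 36.1, Trib3 at 18.2 and Hsph1 at 13.2 to Hspa1a at 0.427 and Hspa1b at 0.389 CPM per kb. The ranges of Hspa8 and Atf4, of Hspa5 and Ppp1r15a, of Ppp1r15a and Dnajb1, of Trib3 and Hsph1, and of Hspa1a and Hspa1b overlapped. Group ranges alone do not order those neighbours, and their order within each library was not examined. In NV HSC, Ppp1r15a stood below Dnajb1, at 47.5 against 86.6 CPM per kb with ranges apart, and Trib3 stood below Hsph1, at 7.56 against 14.8 CPM per kb, also with ranges apart.

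**Figure D1:**
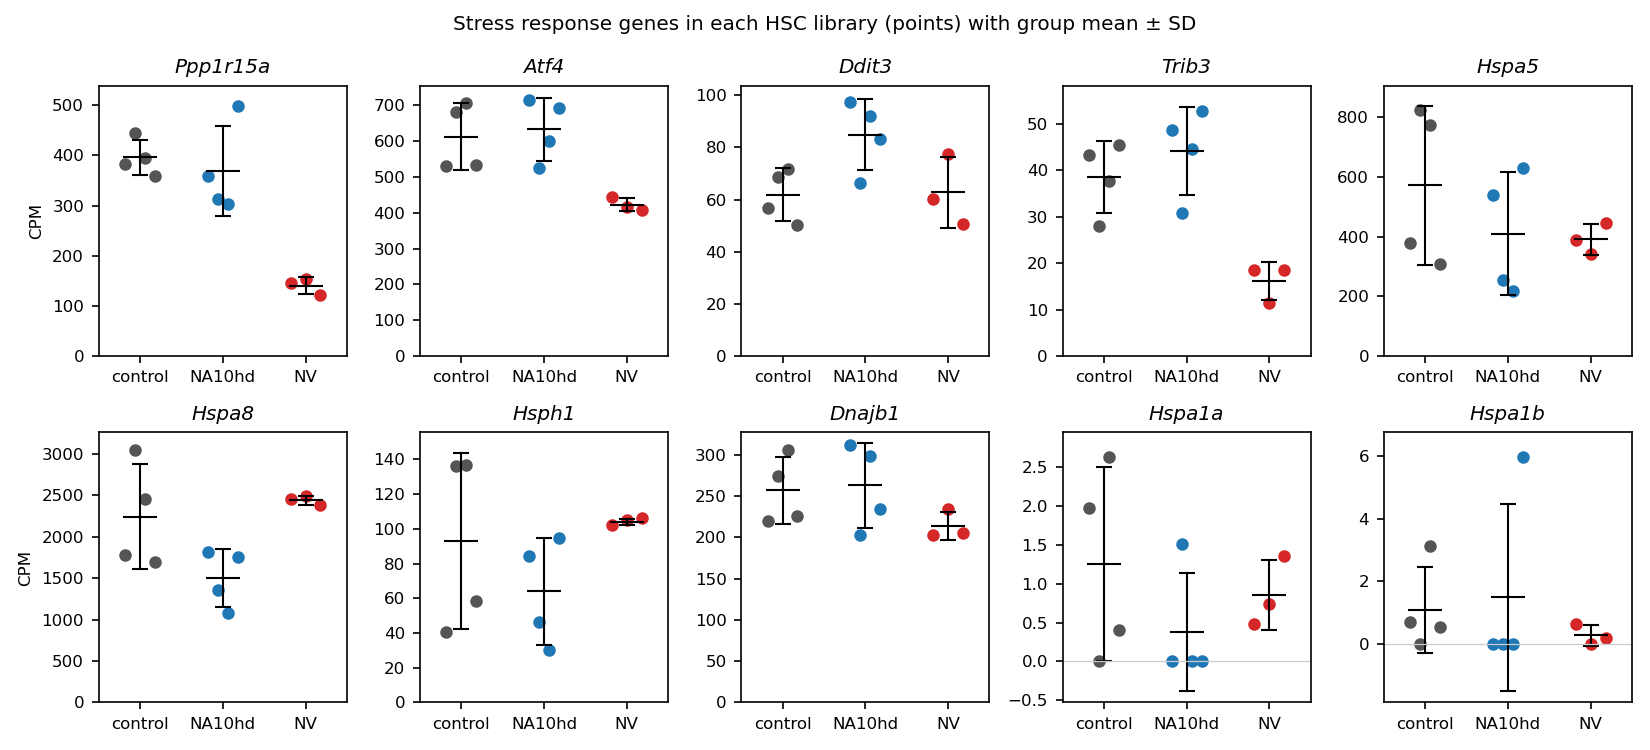
Level in CPM (vertical axis, scale differs between panels) of the 10 genes in each library of control, NA10hd and NV HSC, with horizontal lines and bars for the group mean ± SD (n = 4, 4 and 3). Ppp1r15a, Atf4 and Trib3 of the NV libraries sit below all control and NA10hd libraries, and Hspa5, Hspa8 and Hsph1 spread widely among control and NA10hd libraries.

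The comparison of NV with control HSC asked how the expression of an activated Nras allele changes stem cells. A gene was called when its adjusted p was under 0.05 and its fold change over 1.5. Of the 9 members with enough counts to be tested, 2 were called and both fell, Ppp1r15a and Trib3, beside 4.76% of all 13462 genes tested that were called in either direction, 2.55% higher and 2.21% lower. DESeq2 called the same 2 members, beside 6.98% of genes. Disregarding the fold, 3 members had an adjusted p under 0.05, beside 5.53% of all genes. The groups did not overlap for 3 members, the called pair and Atf4, while 18.9% of all genes tested had groups apart. The median log2 fold change of the members tested was -0.54, as compared with -0.01 over all genes. These members had been chosen with earlier results of these data known. They include Hspa1a, at -0.55 with a 95% interval of -2.89 to 1.79, from at most 33 counts in a library.

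Ppp1r15a (ENSMUSG00000040435, chromosome 7, 52778286 to 52781638, minus strand) was at 384, 445, 395 and 360 CPM in the control libraries, at 145, 153 and 121 CPM in the NV libraries and at 360, 314, 304 and 499 CPM in the NA10hd libraries. Every NV library lay well below the lowest library of the other groups, while control and NA10hd libraries overlapped. The gene was 2.85-fold lower in NV than in control HSC, at 140 ± 16.6 CPM (SD, n = 3) against 396 ± 35.8 CPM (SD, n = 4), a log2 fold change of -1.51 (95% interval -1.78 to -1.24) with an adjusted p of 8.59e-05 by edgeR with Benjamini-Hochberg adjustment over all genes. With any library left out, it stayed called, at log2 fold changes of -1.58 to -1.42 and adjusted p of 0.000175 to 0.00131. Of the 32-base stretches of its exons, 12.9% recur elsewhere in the genome, and the Tulp2 gene overlaps it on the opposite strand with at most 56 counts in any library.

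Trib3 (ENSMUSG00000032715, chromosome 2, 152163158 to 152169768, minus strand), a pseudokinase made under Atf4 and Ddit3 that restrains signalling through Akt, was at 43.2, 27.9, 37.7 and 45.5 CPM in control and at 18.5, 11.3 and 18.5 CPM in NV libraries. The highest NV library was below the lowest control library. NV HSC held 2.41-fold less Trib3 mRNA, 16.1 ± 4.13 CPM (SD, n = 3) against 38.6 ± 7.81 CPM (SD, n = 4), a log2 fold change of -1.27 (95% interval -1.82 to -0.72, edgeR adjusted p 0.0126). Trib3 lost its call without NV replicate 2 (edgeR adjusted p 0.0614) and against control 2 and 3 alone, the control libraries that held transcripts of both sexes as the NV libraries did (log2 fold change -1.04, adjusted p 0.115). Control 2 and 3 are also the control libraries lowest in Trib3.

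Atf4 (ENSMUSG00000042406, chromosome 15, 80085614 to 80087970, plus strand), the transcription factor at the centre of the response, was at 531, 681, 708 and 533 CPM in control and at 443, 416 and 408 CPM in NV libraries. Its groups were apart, and the fold of 1.46 was just under the threshold for a call (log2 fold change -0.54, 95% interval -0.81 to -0.28, edgeR adjusted p 0.0231). Left-out libraries placed it at log2 fold changes of -0.61 to -0.47, past both thresholds without control 1 or control 4 and past neither without NV replicate 1, 2 or 3 (edgeR adjusted p 0.0587, 0.0995 and 0.107). With all 3 groups in a single fit the adjusted p was 0.118. Against control 2 and 3 alone, which are also the control libraries highest in Atf4, it was called, at a log2 fold change of -0.72 (edgeR adjusted p 0.0134).

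Ddit3 (ENSMUSG00000025408, chromosome 10, 126727830 to 126733344, plus strand), which promotes cell death under lasting ER stress, was at 56.8, 68.7, 71.8 and 50.3 CPM in control and at 60.2, 77.6 and 50.5 CPM in NV libraries. The groups overlapped throughout, with a log2 fold change of 0.01 whose 95% interval reached from -0.4 to 0.42 (edgeR adjusted p 0.981). Of the targets of Atf4 among the members, Ppp1r15a and Trib3 thus passed the test in NV HSC and Ddit3 did not. Mars lies over Ddit3 on the opposite strand with up to 728 counts in a library, and reads of the pair cannot be told apart if counting ignored strand.

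Of the chaperones, 0 were called in NV against control HSC by edgeR or by DESeq2, and 0 of the 5 tested had an unadjusted p under 0.05, beside 19.5% of all genes. Hspa5 (ENSMUSG00000026864, chromosome 2, 34627490 to 34632051, plus strand), the ER chaperone BiP, was at 379, 825, 775 and 309 CPM in control and at 387, 341 and 445 CPM in NV libraries. The NV libraries lay within the control range, nearer to its 2 low libraries, at a log2 fold change of -0.56 (95% interval -1.18 to 0.07, edgeR adjusted p 0.325). Hspa8 (ENSMUSG00000015656, chromosome 9, 40609067 to 40613283, plus strand) was at 1780, 3050, 2450 and 1700 CPM in control and at 2460, 2490 and 2380 CPM in NV libraries, a log2 fold change of 0.12 (95% interval -0.24 to 0.48, adjusted p 0.771). Here too the NV libraries fell inside the control range and close to each other.

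Hsph1 (ENSMUSG00000029657, chromosome 5, 150416862 to 150438951, minus strand), the Hsp110 that reloads Hsp70, was at 40.6, 136, 137 and 58.6 CPM in control and at 102, 105 and 106 CPM in NV libraries. Its log2 fold change was 0.15 (95% interval -0.58 to 0.88, edgeR adjusted p 0.867), and the control libraries spanned all NV values. Dnajb1 (ENSMUSG00000005483, chromosome 8, 86132074 to 86135801, plus strand), the Hsp40 that hands clients to Hsp70, was at 220, 275, 306 and 226 CPM in control and 203, 234 and 205 CPM in NV libraries, a log2 fold change of -0.27 (95% interval -0.56 to 0.02, edgeR adjusted p 0.303).

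Among control libraries, Hspa5, Hspa8, Hsph1 and Dnajb1 were higher in the pair that held transcripts of both sexes. Control 2 and 3, with Xist and Y-linked counts, averaged 2.75 times the Hsph1 level of control 1 and 4, at 136 against 49.6 CPM. For Hspa5 the ratio was 2.33, at 800 against 344 CPM, and for Hspa8 it was 1.58, at 2750 against 1740 CPM. Dnajb1 and Atf4 were closer, at ratios of 1.3 and 1.31, and Ddit3 stood at 1.31, Ppp1r15a at 1.13 and Trib3 at 0.74. In 7 of the 10 members both mixed libraries lay above both libraries with Y-linked counts alone, while 21.3% of all genes did so and 4.03% had a ratio over 2. The exceptions were Trib3, Hspa1a and Hspa1b, the last 2 at 0 to 39 counts. Control 2 and 3 were also deeper, at 10639180 and 12610189 counts against 5464815 and 7190197, with lower summed HSC markers, 2580 and 2680 CPM against 3230 and 3110 CPM, and higher summed myeloid markers, 946 and 895 CPM against 745 CPM in both. Their summed erythroid markers were higher, 35.5 and 36.1 CPM against 28.6 and 30.4 CPM, and their lymphoid markers, 46.9 and 45.7 CPM against 55.9 and 70.7 CPM, and immediate early genes, 7670 and 8610 CPM against 9370 and 9280 CPM, lower. Donor sex, depth and these markers cannot be told apart here, and the pairs were not tested against each other. Against control 2 and 3 alone, which are also the control libraries highest in Hspa5, Hspa5 was lower in NV HSC by a log2 fold change of -1.04 and passed both thresholds (edgeR adjusted p 0.00799). Hspa8 and Hsph1 then changed sign, to log2 fold changes of -0.17 and -0.39, with adjusted p of 0.471 and 0.184. Ppp1r15a stayed called at -1.59 (adjusted p 0.00142).

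**Figure D2:**
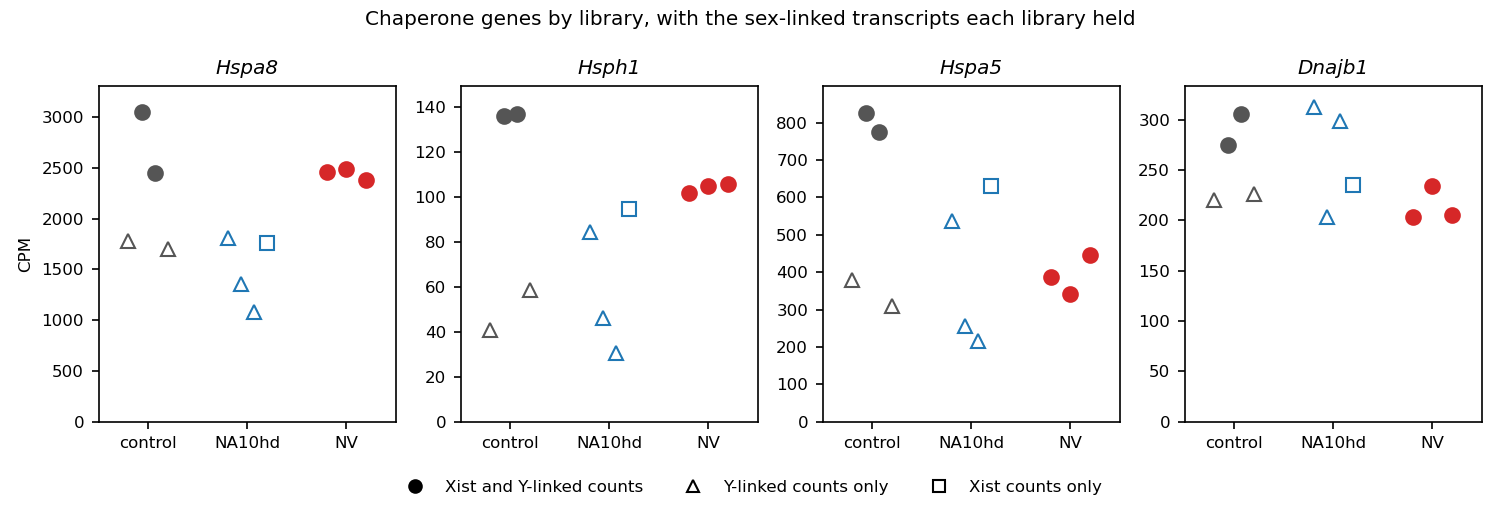
Level in CPM (vertical axis) of Hspa8, Hsph1, Hspa5 and Dnajb1 in each library of the 3 groups, with the marker giving the sex-linked transcripts detected (filled circles, Xist and Y-linked counts, triangles, Y-linked counts only, squares, Xist only). The filled control circles lie above the control triangles in each panel, and the 4 open NA10hd markers fall into a high and a low pair for Hspa5 and Hsph1.

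In the comparison of NA10hd with control HSC, which asked what sets stem cells with the fusion protein apart from normal ones, 0 of the 8 members tested were called by edgeR or by DESeq2. Few genes passed the thresholds at all in this comparison, 0.00766% of the 13060 genes tested by edgeR and 1.7% by DESeq2. With all 3 groups in a single edgeR fit, 39 genes were called. NA10hd libraries differed more among themselves than control libraries did, and whether the low count reflects that spread or a small effect was not tested. At an unadjusted p under 0.05 were 2 members, Hspa8 and Ddit3, beside 11.9% of all genes, and in 0 members were the groups apart, beside 7.83% of all genes. Hspa8 was at 1810, 1360, 1080 and 1760 CPM in NA10hd libraries, which overlapped the lower control libraries, and the log2 fold change was -0.58 (95% interval -1.03 to -0.13, edgeR adjusted p 0.317). Ddit3 was at 97.5, 66.4, 91.9 and 83.2 CPM in NA10hd libraries, 3 of which exceeded every control library, with a log2 fold change of 0.45 (95% interval 0.04 to 0.87, edgeR adjusted p 0.378).

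For Ppp1r15a and Atf4 the difference between NA10hd and control HSC was near 0. Ppp1r15a differed by a log2 fold change of -0.1 (95% interval -0.47 to 0.27) and Atf4, at 715, 524, 600 and 693 CPM in NA10hd libraries, by 0.05 (95% interval -0.29 to 0.38), with edgeR adjusted p of 0.863 and 0.927. Trib3 was at 48.7, 30.8, 44.7 and 52.7 CPM, within a log2 fold change of 0.2 of control (95% interval -0.32 to 0.72, edgeR adjusted p 0.798). Dnajb1, at 312, 203, 299 and 235 CPM, differed by 0.03 on the log2 scale (95% interval -0.35 to 0.42).

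Within the NA10hd group, libraries 1 and 4 both lay above libraries 2 and 3 in 6 of the 10 members, Hspa5, Hsph1, Hspa8, Atf4, Trib3 and Ppp1r15a, a division chosen after the values had been seen and shown by 21.1% of all genes. Hspa5 was at 538 and 631 CPM in libraries 1 and 4 and at 256 and 217 CPM in libraries 2 and 3. Hsph1 was at 84.4 and 94.7 CPM in libraries 1 and 4 and at 46.1 and 30.4 CPM in libraries 2 and 3, and Hspa8 was higher in the same 2 libraries. Library 4 held Xist and libraries 1 to 3 held Y-linked counts. Libraries 1 and 4 also had fewer counts in all, 8800392 and 7624638 against 12180230 and 11654642, fewer genes detected, 14430 and 13859 against 15361 and 15455, a higher mitochondrial share, 5.28 and 4.95% against 3.42 and 3.75%, higher summed myeloid markers, 1070 and 940 CPM against 843 and 827 CPM, and lower summed erythroid markers, 20.5 and 19.7 CPM against 34.8 and 33.8 CPM. Their part in the split was not tested. With these spreads, NA10hd and control HSC overlapped for Hspa5 (log2 fold change -0.48, 95% interval -1.27 to 0.3) and for Hsph1 (log2 fold change -0.55, 95% interval -1.43 to 0.33), with intervals wide enough to hold a 1.5-fold difference. Restricted to NA10hd 1 to 3 and control 1 and 4, Hsph1 and Trib3 changed sign, to log2 fold changes of 0.1 and -0.1, with an adjusted p of 1 for both.

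The direct comparison of the models used the same NV and NA10hd libraries as the comparisons above. Of 8 members tested, 3 were called, Ppp1r15a and Trib3 higher and Hspa8 lower in NA10hd than in NV HSC, beside 5.09% of the 13461 genes tested, 2.3% higher and 2.79% lower, and the share of genes under an adjusted p of 0.05 at any fold was 5.11%. The groups were apart for 5 members, these 3 with Atf4 and Hsph1, and for 21% of all genes. No NA10hd library matched the sex-linked transcripts of the NV libraries, so genotype and donor sex cannot be told apart here.

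Ppp1r15a was 2.63-fold higher in NA10hd than in NV HSC, 369 ± 89.7 CPM (SD, n = 4) against 140 ± 16.6 CPM (SD, n = 3), a log2 fold change of 1.39 (95% interval 0.95 to 1.84, edgeR adjusted p 0.00361), and it stayed called with each library left out (adjusted p 0.00206 to 0.0385). Trib3 was 2.73-fold higher, at 44.2 ± 9.52 CPM (SD, n = 4), with a log2 fold change of 1.45 (95% interval 0.78 to 2.12, edgeR adjusted p 0.0224), and lost its call without NV replicate 1, 2 or 3 (edgeR adjusted p 0.0748, 0.126 and 0.0936). Hspa8 was 1.64-fold lower in NA10hd HSC, at 1500 ± 349 CPM (SD, n = 4) against 2440 ± 52.4 CPM (SD, n = 3), a log2 fold change of -0.71 (95% interval -1.1 to -0.33, edgeR adjusted p 0.0419). The Hspa8 call was held without NA10hd replicate 1 or 4 and lost without NA10hd replicate 2 or 3 or any of the NV libraries, with adjusted p up to 0.175.

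Atf4 was 1.49-fold higher in NA10hd than in NV HSC and missed the threshold by edgeR (log2 fold change 0.58, 95% interval 0.24 to 0.91, adjusted p 0.0546), while DESeq2 called it (log2 fold change 0.6, adjusted p 0.00297). DESeq2 thus called 4 members, beside 10.1% of genes. Hsph1 was 1.65-fold lower, with groups apart and a wide interval (log2 fold change -0.72, 95% interval -1.43 to -0.01, edgeR adjusted p 0.252). Ddit3, Dnajb1 and Hspa5 overlapped, at log2 fold changes of 0.42, 0.29 and 0.06 with edgeR adjusted p of 0.324, 0.435 and 0.955.

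**Figure D3:**
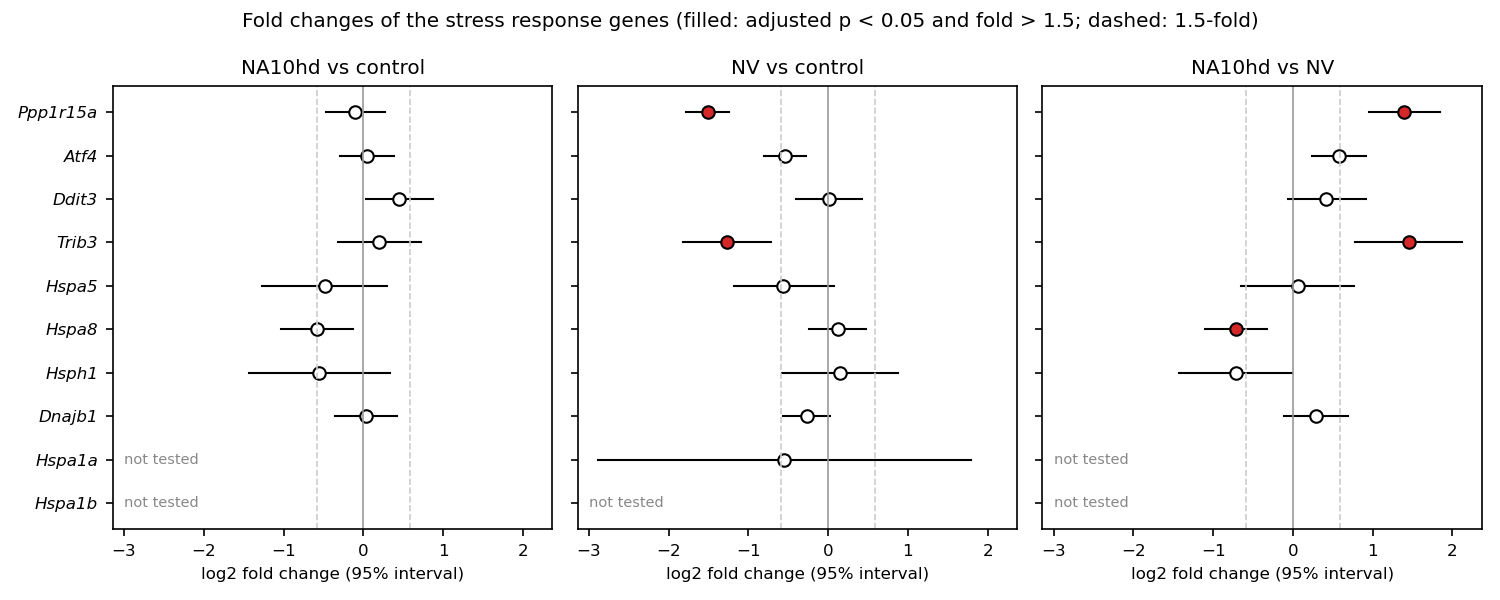
Log2 fold change with its 95% interval (horizontal axis, edgeR) of each gene in the 3 comparisons, first-named group relative to the second, with filled points for calls (adjusted p < 0.05 and fold > 1.5) and dashed lines at 1.5-fold. Ppp1r15a and Trib3 are called lower in NV than in control and higher in NA10hd than in NV HSC, Hspa8 is called lower in NA10hd than in NV HSC, and the points of NA10hd against control HSC are all open.

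The stress-inducible Hsp70 genes were close to the detection limit in all groups. Hspa1a (ENSMUSG00000091971, chromosome 17, 35106144 to 35109069, minus strand) held 11, 0, 33 and 3 counts in control, 0, 19, 0 and 0 in NA10hd and 6, 11 and 14 in NV libraries. Hspa1b (ENSMUSG00000090877, chromosome 17, 35093381 to 35096183, minus strand) held 4, 0, 39 and 4 counts in control, 0, 0, 0 and 42 in NA10hd and 8, 0 and 2 in NV libraries. Most of either gene's counts came from 1 or 2 libraries of a group.

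The exons of these genes share 64.2% of the 32-base stretches of Hspa1a and 67.0% of those of Hspa1b, so that how reads were split between them is uncertain. Summed over both genes, libraries held 0 to 72 counts, and the log2 fold change was -0.35 for NA10hd against control, -1.06 for NV against control and 0.69 for NA10hd against NV HSC, with edgeR adjusted p of 0.946, 0.659 and 0.87. A difference in inducible Hsp70 was not detectable in these libraries. For Hspa8 as well, 43.1% of its 32-base stretches recur elsewhere in the genome, and the treatment of reads with several matches was not stated.

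Further genes of the same pathways were examined as lists. The cytosolic chaperone list held 30 genes, mostly chaperones and co-chaperones of the cytosol, with the factors Hsf1 and Hsf2 and the mitochondrial Hspd1 and Hspe1 among them. The others held 21 genes of the ER unfolded protein response, 40 kinases and targets of the integrated stress response, and 14 immediate early genes. Immediate early genes respond to growth factors and to cell handling within minutes. In NV against control HSC, 0 of 28 genes tested of the cytosolic chaperone list rose and 1 fell, Hspb8, a small heat shock protein, from 10.1 ± 5.31 CPM (SD, n = 4) to 1.9 ± 0.811 CPM (SD, n = 3, log2 fold change -2.43, edgeR adjusted p 0.016). Of the 21 ER genes 1 fell, Dnajb9, a co-chaperone of Hspa5, from 166 ± 46.2 CPM (SD, n = 4) to 98.3 ± 14.8 CPM (SD, n = 3, log2 fold change -0.77, edgeR adjusted p 0.04). The Hspb8 call was lost without NV replicate 1 or 2 (log2 fold changes -2.45 and -2.15, edgeR adjusted p 0.0521 and 0.0714) and against control 2 and 3 alone (-2.71, adjusted p 0.054). The Dnajb9 call was held in 2 of the 7 fits with a library left out (edgeR adjusted p 0.0367 to 0.174). It was held against control 2 and 3 alone (log2 fold change -1.01, adjusted p 0.0316) and lost with all 3 groups in a single fit (adjusted p 0.196). With 1 call each, both lists stood near the 4.76% of all genes called, and their medians of -0.02 and -0.08 near the -0.01 of all genes.

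Among 40 integrated stress response genes tested, 1 rose and 1 fell in NV against control HSC, beside 4.76% of all genes called, with a median log2 fold change of 0.09. Psat1, an enzyme of serine synthesis, rose from 104 ± 11.7 CPM (SD, n = 4) to 171 ± 26.7 CPM (SD, n = 3, log2 fold change 0.71, edgeR adjusted p 0.0129). The call was lost without NV replicate 2 or 3 (log2 fold changes 0.65 and 0.63, edgeR adjusted p 0.0723 and 0.0812) and against control 2 and 3 alone (0.66, adjusted p 0.0958). Chac1, which degrades glutathione, had 0, 45, 32 and 8 counts in control, 0, 0, 45 and 0 in NA10hd and 0 in each of the NV libraries, at least 24-fold lower in NV HSC than in control when set against a floor of 3 counts over the 36597205 counts of the NV group. The bound was at least 14.8-fold without control replicate 2, 15.9-fold without NV replicate 1 and 14.7-fold without NV replicate 2. Chac1 was at 0 in a control library as well, and the call was held in 1 of the 4 fits in which it could be tested with a library left out.

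Of the immediate early genes, in NV against control HSC, 9 of 14 fell and 0 rose, beside 2.21% and 2.55% of all genes, with a median log2 fold change of -0.83, among them Egr1 from 1190 ± 157 CPM (SD, n = 4) to 467 ± 11.6 CPM (SD, n = 3, log2 fold change -1.35), Fosb (-1.41), Fos (-1.06), Jun (-1.04), Junb (-1), Dusp1 (-0.89), Ier2 (-0.89), Klf6 (-0.77) and Zfp36 (-0.76). Of these 9 calls, 6 were held with every library left out and 7 against control 2 and 3 alone, but with all 3 groups in a single fit 2 of the 13 list genes called in this comparison kept their call, Egr1 and Fosb. The summed level of the list was 7670, 8610, 9280 and 9370 CPM in the control libraries and 4040, 4350 and 5480 CPM in the NV libraries. In NA10hd libraries 1 to 4 it was 10600, 6310, 8740 and 5630 CPM. Its part, and that of the lower mitochondrial share, the higher erythroid markers and the higher megakaryocyte markers of the NV libraries, in the lower Ppp1r15a and Trib3 levels was not tested.

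In NA10hd against control HSC, 0 genes of the 4 lists were called by edgeR and 3 by DESeq2, which called 1.7% of all genes. Of the cytosolic chaperone list 6 of 29, 4 of 21 ER genes, 11 of 39 integrated stress response genes and 4 of 14 immediate early genes had an unadjusted p under 0.05, beside 11.9% of all genes. The medians were -0.24, -0.38, -0.3 and 0.15, beside 0.02 over all genes. In NA10hd against NV HSC, 0 of 30 genes of the cytosolic chaperone list were called by edgeR, with 6 at an unadjusted p under 0.05, beside 19.5% of all genes, and 5 called by DESeq2, beside 10.1% of all genes. Of the 21 ER genes Creld2 was lower (log2 fold change -1.26, edgeR adjusted p 0.0197), near the 5.09% of all genes called, and the list's median was 0.11.

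Of 38 integrated stress response genes tested, 6 were lower in NA10hd than in NV HSC and 0 higher, with a median of -0.37, beside 2.79% of all genes that were lower. The sign of these 6 was opposite to that of Ppp1r15a and Trib3. The amino acid transporter Slc7a5 was at 12.2 ± 3.12 CPM (SD, n = 4) in NA10hd against 48.2 ± 7.22 CPM (SD, n = 3) in NV HSC (log2 fold change -1.98, edgeR adjusted p 0.00407) and was called with each library left out. The enzymes of serine and one-carbon metabolism Psat1, Phgdh and Mthfd2 had log2 fold changes of -1.12, -0.89 and -2.36, and the glycyl-tRNA synthetase Gars one of -0.93, with edgeR adjusted p of 0.00588, 0.012, 0.0221 and 0.0265. Ppp1r15b, the constitutive counterpart of Ppp1r15a, was lower at 59.4 ± 9.53 CPM (SD, n = 4) against 111 ± 10.6 CPM (SD, n = 3, log2 fold change -0.91, edgeR adjusted p 0.0247), the opposite sign to Ppp1r15a. The immediate early genes Junb, Egr1, Jund, Ier3, Ier2 and Btg2 were higher in NA10hd HSC, 6 of 14 beside 2.3% of all genes, with 0 lower and a median of 0.85. Of the 13 calls in the 4 lists, that of Slc7a5 alone was held whichever library was left out.

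**Figure D4:**
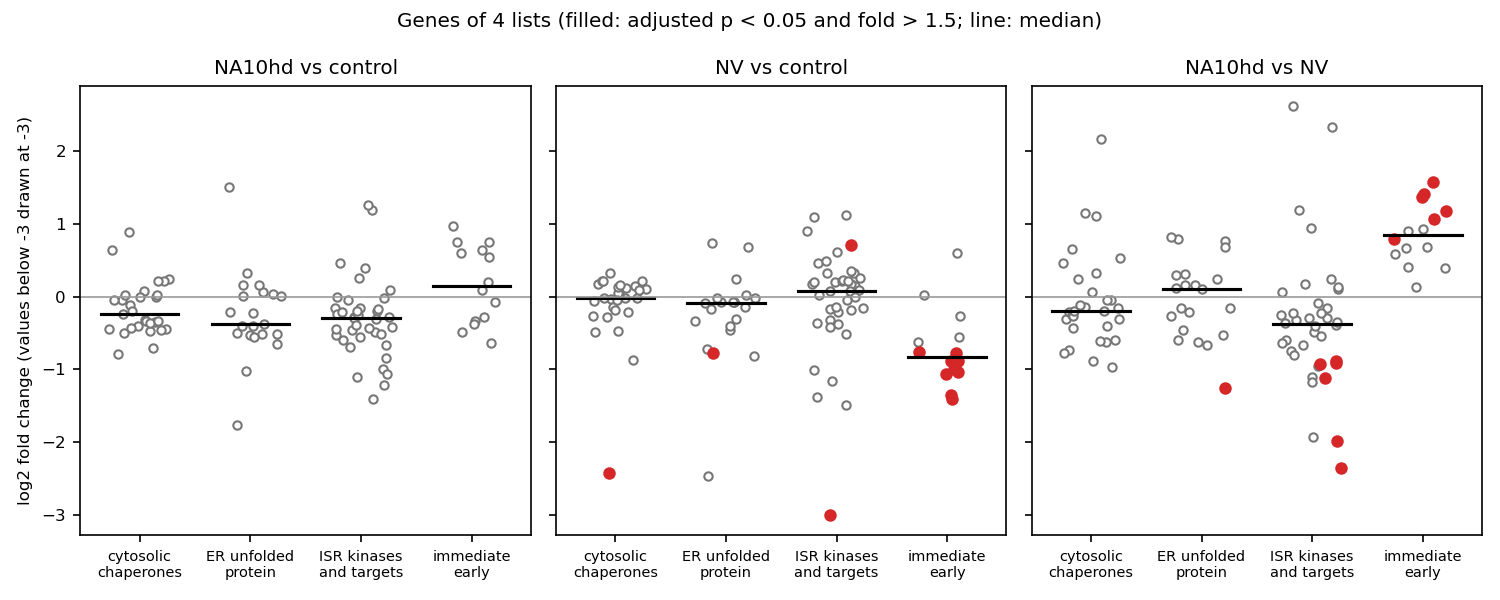
Log2 fold change (vertical axis, edgeR, first-named group relative to the second) of each gene tested in the 4 pathway lists, 1 point per gene, with filled points for calls and a line at each list's median. In NV against control HSC the immediate early genes lie mostly below 0 while the chaperone lists centre near 0, and in NA10hd against NV HSC the called integrated stress response genes lie below 0 and the called immediate early genes above 0. The point drawn at the lower limit is Chac1, with 0 counts in NV HSC.

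Likeness of pattern was measured as the root mean square difference of log2 CPM over the 11 libraries after centring each gene, among 9504 genes with a mean of 10 CPM or more. The nearest genes to Ppp1r15a were Plxdc2 at 0.24, Pde2a at 0.27 and Lima1 at 0.28, as compared with an SD of 0.71 of Ppp1r15a itself over the libraries. Nearest to Trib3 were Mgst2 and Vdr at 0.25 and Net1 at 0.26, and nearest to Atf4 were Npdc1 at 0.1, Naca at 0.12 and Gm15772 at 0.14. Hspa8 was followed most closely by Cct3, a subunit of the cytosolic chaperonin, at 0.09, by Hsp90b1, the ER form of Hsp90, at 0.11 and by Cdv3 at 0.13. Hspa5 was nearest to Rsl1d1, Ncl and the mitochondrial chaperone Hspd1, all at 0.27, and Hsph1 to Heatr2 at 0.23, Snrpd3 at 0.28 and Nolc1 at 0.29. Dnajb1 was nearest to Tmed10 at 0.13, Mrfap1 at 0.14 and Glo1 at 0.15, and Ddit3 to Ctu2 at 0.14, 1500011K16Rik at 0.16 and Sod1 at 0.17. For Hspa1a and Hspa1b no gene came closer than 0.61 and 0.74, those of Dhrs13 and Sik1, beside SDs of their own of 1.01 and 1.27. Such distances grow with a gene's own SD, which was 0.24 for Dnajb1, so they are not comparable between members. Depth and donor sex, which differed between the libraries, enter these distances.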

How the data were processed

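HSC were sorted from bone marrow, cDNA was amplified from polyadenylated RNA, and Nextera XT libraries were sequenced on a NextSeq500. The deposited counts are whole reads per gene, which the authors made with HISAT2 against NCBIM37 and featureCounts. Their versions, the strand setting and the treatment of reads with several matches are not given in the sources used here. Symbols were found for 37205 of 37991 identifiers, and 786 had none.

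Each pair of groups was fitted on its own libraries with the quasi-likelihood test of edgeR 4.0.16 in R 4.3.3 (TMM, low counts removed by filterByExpr), with Benjamini-Hochberg adjustment over all genes tested. DESeq2 1.42.0 was an alternative. Members, lists and tests were chosen with earlier results of these data known. The named genes were all members, every gene of the 4 pathway lists called in a comparison, and the 3 genes most like each member. Promoters came from a RefSeq table (GRCm38.p6). The marker lists and the 4 pathway lists were written by hand.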

Additional observations from a re-analysis of the deposited data

Results flagged for a closer look

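Among the 20 sets of values of a member in a group of 4 libraries, 2 held a library apart from the others by Dixon's criterion, where chance alone would set apart about 1 in 20 sets of untied values. With the other 3 libraries tied at 0, as in both, any value above 0 meets the criterion. NA10hd replicate 2 had 1.51 CPM of Hspa1a, from 19 counts, while the other NA10hd libraries had 0. NA10hd replicate 4 had 5.96 CPM of Hspa1b, from 42 counts, and the others again 0. The genes are near copies, and each of these libraries had 0 counts of the other copy.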

How the results depend on the processing

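The count of members called stayed at 0 in NA10hd against control HSC under every alternative run, at 2 or 3 in NV against control HSC and at 3 or, by DESeq2, 4 in NA10hd against NV HSC, except with a library left out, where the latter 2 ranged from 1 to 3. Of all genes, with a library left out, 0 to 5, 263 to 643 and 146 to 771 were called in the 3 comparisons, and of the list genes 7 to 13 and 2 to 17 in the latter 2. Without NV replicate 1, 2 or 3, 1 member was called in NA10hd against NV HSC.

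In NA10hd against control HSC, the 1 gene called of all tested became 238 by DESeq2, 8 without the filter on low counts, 39 with all 3 groups in a single fit, 0 with the replicate block and 0 in libraries of the same sex mix, and the list genes called became 3 by DESeq2. In NV against control HSC, the 641 genes became 1015 by DESeq2, 155 in the single fit and 301 in libraries of the same sex mix, and the 13 list genes became 2 in the single fit. In NA10hd against NV HSC, the 685 genes became 1472 by DESeq2 and 1152 in the single fit, and the 13 list genes became 25 and 21. The cause was not tested. Signs turned in libraries of the same sex mix for Hsph1 (0.1) and Trib3 (-0.1) in NA10hd against control HSC and for Hspa8 (-0.17), Hsph1 (-0.39) and Ddit3 (-0.16) in NV against control HSC. Same-numbered libraries of different groups shared only a number, with correlations of their deviations of -0.1 to 0.03, and 0 of 8, 1 of 6 and 4 of 6 libraries in the 3 comparisons correlated best with their own number. The replicate block left 0, 442 and 588 genes called. With the replicate block signs turned for Ddit3 (-0.09) in NV against control HSC and for Hspa5 (-0.33) in NA10hd against NV HSC, and Atf4 in NV against control HSC became a call (-0.59, edgeR adjusted p 0.0462), so that 3 members were called there. Under the block the calls of Dnajb9 in NV against control HSC and of Ppp1r15b, Btg2, Ier3 and Jund in NA10hd against NV HSC were lost, at edgeR adjusted p of 0.0598, 0.0589, 0.0728, 0.0625 and 0.105. Dnajb9 was then at a log2 fold change of -0.82, beside -0.77 without the block, and 11 list genes were called in NV against control HSC, beside 13. With a library left out, log2 fold changes spanned -0.06 to 0.14 for Dnajb1 and -0.01 to 0.13 for Atf4 in NA10hd against control, -0.09 to 0.39 for Hsph1 and -0.17 to 0.14 for Ddit3 in NV against control, and -0.22 to 0.26 for Hspa5 in NA10hd against NV HSC, none of them past the threshold. Hspa1a, Hspa1b and Chac1 had 0 counts in several libraries, which limits their comparison.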
